A study of Homo sapiens with 6 samples.

Results

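Transcripts of the collagens and of the enzymes and chaperones that modify them were measured in cultured melanoma cells after silencing of RIPK4, a receptor-interacting serine/threonine kinase. The members were every protein-coding gene of the deposited table whose symbol had the form of a collagen alpha chain (COL, digits, A, digits), and 16 named genes: the lysyl oxidases LOX and LOXL1 to LOXL4, the lysyl hydroxylases PLOD1 to PLOD3, the prolyl 4-hydroxylase subunits P4HA1 to P4HA3, the proteinase enhancers PCOLCE and PCOLCE2, the chaperone SERPINH1 and the galactosyltransferases COLGALT1 and COLGALT2. This gave 55 members among the 24526 genes of the table, 39 collagen chains and 16 enzymes or chaperones, and 46 of them (30 chains and all 16 enzymes or chaperones) passed the filter on low counts and were tested. The rule itself reads gene symbols and gene type, not measured values, but it was written with earlier results of these data known. Poly(A) RNA came from WM266.4, an established human melanoma cell line, 48 h after transfection with a negative control siRNA (neg.si, 3 cultures) or an siRNA specific for RIPK4 (RIPK4.si, 3 cultures). An siRNA guides the cell's own machinery to degrade transcripts with a matching sequence. A single RIPK4 siRNA was used in this experiment, so an effect of loss of RIPK4 and any other effect of that siRNA cannot be told apart.

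Collagens are secreted proteins of 3 alpha chains wound into a triple helix. Fibrillar collagens such as types I, III and V form fibrils, type IV collagen forms the sheet-like network of basement membranes, type VI forms beaded filaments, and the other families attach to fibrils, span the plasma membrane or anchor basement membranes. In the endoplasmic reticulum, prolyl and lysyl hydroxylases and galactosyltransferases modify the chains and the chaperone SERPINH1 (HSP47) holds the folded helix. After secretion, propeptides are removed and lysyl oxidases oxidize lysine residues, from which the cross-links between molecules form.

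The libraries held 28464057 to 31688095 counts, and a transcript level is given as CPM, the count scaled to the TMM-normalized library size. Levels of different genes are compared as CPM per kb, which is CPM divided by the length of the gene's canonical transcript in kb. Log2 fold changes are RIPK4.si over neg.si, with the standard error (SE), and genes under an adjusted p of 0.05 are referred to as called in edgeR (quasi-likelihood test, Benjamini-Hochberg over the 16297 genes tested). The targeted transcript, RIPK4, was 85.8, 76.5 and 54.7 CPM in the neg.si libraries and 19.9, 16.7 and 21.5 CPM in the RIPK4.si libraries. Of the melanocyte markers, all 8 of 8 were tested and MITF and SOX10 were between 289.9 and 428 CPM in every library. The pigment gene PMEL was the 1 marker called with edgeR, at 249 to 312 CPM in neg.si and 104 to 119 CPM in RIPK4.si. With DESeq2, 3 of the 8 were called, PMEL, TYR and DCT, and 4 of the 8 had an unadjusted p under 0.05 with edgeR. Over all genes, 0.767% were called with edgeR, 2.91% with DESeq2, and 10.8% had an unadjusted p under 0.05. The summed level of the 8 markers ranged from 3574 to 4012 CPM in neg.si and from 2635 to 2759 CPM in RIPK4.si. TYR gave the largest part of this sum, and MITF, MLANA and TYRP1 had log2 fold changes of 0.04, 0.06 and 0.36, none of them called. The part of this difference in the values below was not tested. Of the 7 fibroblast markers, 5 were tested and 0 were called (0 with an unadjusted p under 0.05 and 0 with DESeq2), with summed levels of 90.3 to 112.0 CPM in neg.si and 102 to 112.2 CPM in RIPK4.si. FAP gave most of that sum, and DCN was at 0 counts in 3 of the 6 libraries and under 0.15 CPM in the others. Of 6 keratinocyte, leukocyte and endothelial markers, 4 were in the table, and their summed level was at most 1.71 CPM in any library.

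Promoter sequences are given for the genes that the results turn on. They came from RefSeq (GRCh38.p14), as 300 bases from 250 before to 50 after a transcription start, and 41 of the 55 members had 54 promoters there. LOXL3 has 2 promoters in that table, on the minus strand of chromosome 2, at chr2:74549477-74549776 and chr2:74553893-74554192, and they are shown because LOXL3 is the called member. COL15A1 lies on the plus strand at chr9:98943657-98943956 and COL8A2 on the minus strand at chr1:36125173-36125472, and both were called with DESeq2. COL22A1, also called with DESeq2, is not shown. The window of COL4A2, on the plus strand at chr13:110307034-110307333, also holds the RefSeq start of COL4A1, which lies 127 bases away and runs in the opposite direction. Capitals mark the GC box (GGGCGG) or the CCAAT box (CCAAT) on either strand:
LOXL3 start a: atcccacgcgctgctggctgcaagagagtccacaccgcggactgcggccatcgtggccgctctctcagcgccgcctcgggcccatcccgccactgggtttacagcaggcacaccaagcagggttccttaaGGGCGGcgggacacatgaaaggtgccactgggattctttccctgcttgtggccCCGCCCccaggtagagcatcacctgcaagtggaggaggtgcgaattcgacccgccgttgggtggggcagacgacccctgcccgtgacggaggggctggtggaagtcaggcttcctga
LOXL3 start b: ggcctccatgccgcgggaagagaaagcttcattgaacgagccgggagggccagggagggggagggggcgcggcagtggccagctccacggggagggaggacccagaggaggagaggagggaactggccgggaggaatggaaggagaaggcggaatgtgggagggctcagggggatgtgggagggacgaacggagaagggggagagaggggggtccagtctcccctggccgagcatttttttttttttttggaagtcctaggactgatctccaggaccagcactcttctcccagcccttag
COL15A1: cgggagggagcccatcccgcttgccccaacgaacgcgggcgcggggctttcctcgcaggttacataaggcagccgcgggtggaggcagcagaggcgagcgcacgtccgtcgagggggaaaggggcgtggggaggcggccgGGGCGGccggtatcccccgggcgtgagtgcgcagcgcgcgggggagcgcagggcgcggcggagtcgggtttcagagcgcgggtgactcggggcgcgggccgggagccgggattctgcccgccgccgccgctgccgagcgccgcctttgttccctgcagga
COL8A2: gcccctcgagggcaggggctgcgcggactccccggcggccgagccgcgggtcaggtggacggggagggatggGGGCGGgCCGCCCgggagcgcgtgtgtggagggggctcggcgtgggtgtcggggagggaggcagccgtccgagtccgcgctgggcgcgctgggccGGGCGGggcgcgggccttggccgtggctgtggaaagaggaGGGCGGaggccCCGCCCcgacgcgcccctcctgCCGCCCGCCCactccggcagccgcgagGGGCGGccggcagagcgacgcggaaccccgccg
COL4A1 and COL4A2, strand of COL4A2: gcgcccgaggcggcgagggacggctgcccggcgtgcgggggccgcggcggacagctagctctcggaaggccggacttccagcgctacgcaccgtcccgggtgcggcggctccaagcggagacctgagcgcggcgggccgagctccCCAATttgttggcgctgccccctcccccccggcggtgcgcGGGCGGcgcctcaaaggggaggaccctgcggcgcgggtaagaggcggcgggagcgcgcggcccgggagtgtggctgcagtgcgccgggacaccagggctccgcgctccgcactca

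Start a of LOXL3 held 2 GC boxes and start b none, while the COL8A2 window held 8 and the COL15A1 window 1. The window that COL4A1 and COL4A2 share held 1 GC box and 1 CCAAT box. A GC box was present in 57.4% of the 54 member promoters and in 45.0% of the 35116 promoters of the table, and a CCAAT box in 29.6% and 34.6%. The TATA box TATAAA was present in 16.7% against 11.5%, and the AP-1 element TGANTCA in 1.85%, 1 promoter of COL10A1, against 7.71%. The 4 motifs were searched on both strands, and a match is a description of the sequence only.

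Levels of the members covered a wide range, with a few enzymes and chains high and LOX, P4HA3 and most chains low. LOXL4, a lysyl oxidase, had the highest mean level of the members at 1262 CPM per kb and ranked 14 of 24526 genes by mean CPM. SERPINH1 followed at 506 CPM per kb, P4HA1, a catalytic subunit of prolyl 4-hydroxylase, at 282 CPM per kb, and PLOD3 at 192 CPM per kb. The highest chains were COL4A2 at 175, COL4A1 at 152 and COL1A2 at 145 CPM per kb. These 3 chains took 67.1%, 67.6% and 67.0% of the CPM of all collagen chains in the neg.si libraries and 64.9%, 63.1% and 64.6% in the RIPK4.si libraries, groups that did not overlap. At the other end, 9 chains did not pass the filter on low counts: COL1A1, COL2A1, COL3A1, COL4A5, COL6A6, COL10A1, COL13A1, COL20A1 and COL28A1. COL1A1, the partner of COL1A2 in type I collagen, had 9, 5 and 0 counts in neg.si and 7, 5 and 5 counts in RIPK4.si, while COL1A2 had between 14738 and 30486 counts in every library. COL3A1, the chain of type III collagen, which accompanies type I in many soft tissues, had 3 to 11 counts per library. COL4A6, COL6A5, COL21A1, COL23A1 and COL25A1 were not analysed here.

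**Figure D1:**
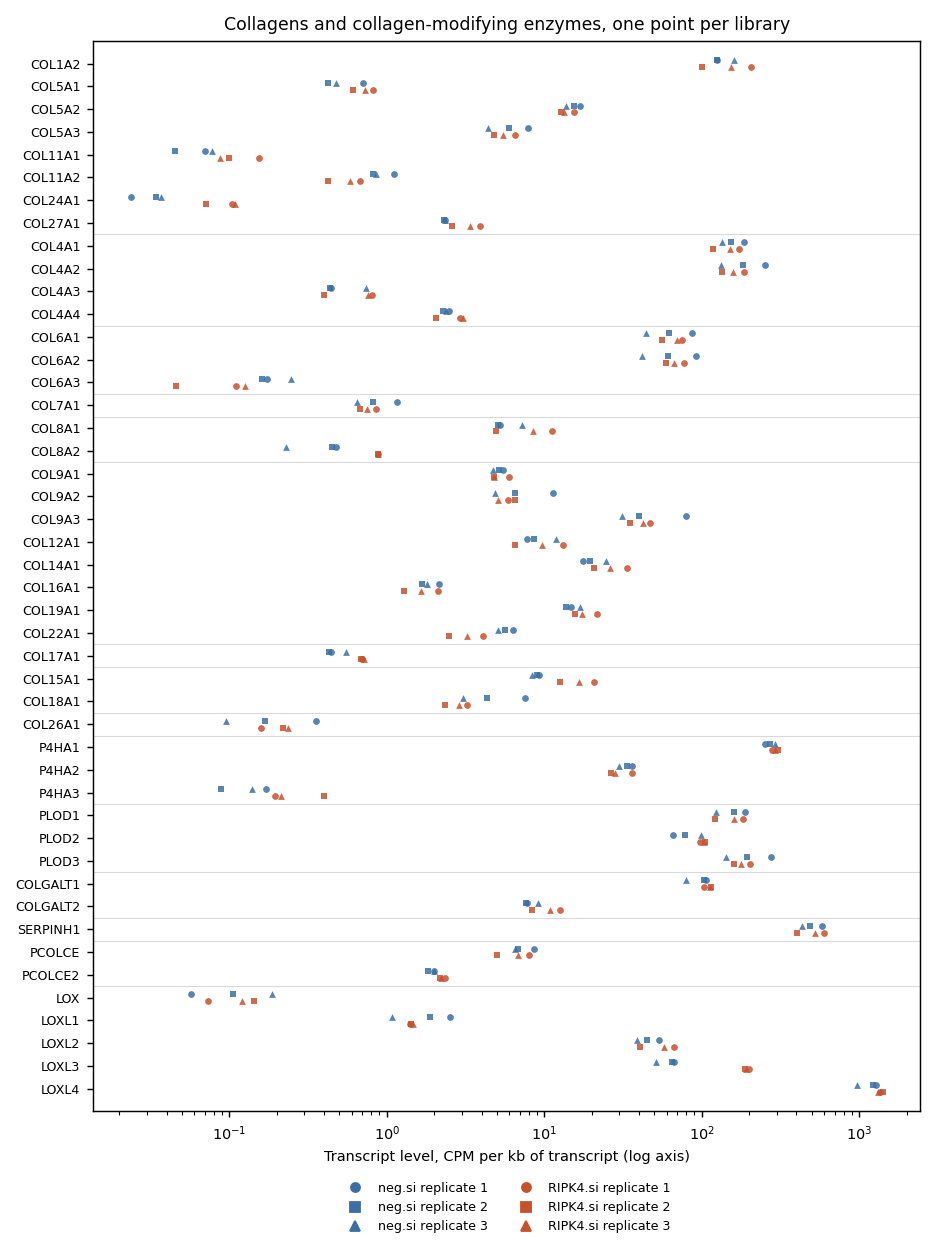
Transcript level of each tested member in each library, in CPM per kb of canonical transcript on a log axis, with neg.si in blue, RIPK4.si in red, marker shapes for the replicate numbers, and grey lines between roles. LOXL4 lies farthest to the right, COL24A1 farthest to the left, and the LOXL3 points of RIPK4.si lie apart from those of neg.si.

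The whole set of members did not move one way. Of the 46 tested, 27 had a log2 fold change above 0 and 19 below 0, and the median was 0.06 beside -0.02 over all 16297 genes. With edgeR, 1 member was called, LOXL3, where 0.767% of all genes tested were called. With DESeq2, 4 members were called, LOXL3, COL15A1, COL8A2 and COL22A1, where 2.91% of the genes with an adjusted p were called. With each library's trend on GC content removed, 3 members were called, LOXL3, COL15A1 and COL8A2, beside 3.53% of all genes. An unadjusted p under 0.05 was found for 10 members, 6 of them higher and 4 lower in RIPK4.si, where 10.8% of all genes had one. That number was 15 when neg.si replicate 3 was left out, where 2380 of the 16586 genes tested had one. It was between 7 and 11 when another library was left out, where 1086 to 2268 genes had one. In 13 members (28.3% of the 46) the neg.si and RIPK4.si libraries did not overlap, 10 higher and 3 lower in RIPK4.si, beside 17.6% of all genes, 1341 higher and 1532 lower. Summed over the 39 chains, the level was 5189, 4154 and 3820 CPM in neg.si and 5182, 3413 and 4323 CPM in RIPK4.si, so the groups overlapped. Summed over the 16 enzymes and chaperones, it was 9110.0, 8483 and 7163 CPM in neg.si and 10010.4, 9402 and 9542 CPM in RIPK4.si, with no overlap. LOXL4 gave the largest part of this sum, which also holds LOXL3, at 189.9 to 246 CPM in neg.si and 692 to 735 CPM in RIPK4.si. With either LOXL3 or LOXL4 taken out of the sum, the groups overlapped. Lower levels in a bulk culture can come from fewer cells that express a gene or from less RNA per cell, and these cannot be told apart.

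**Figure D2:**
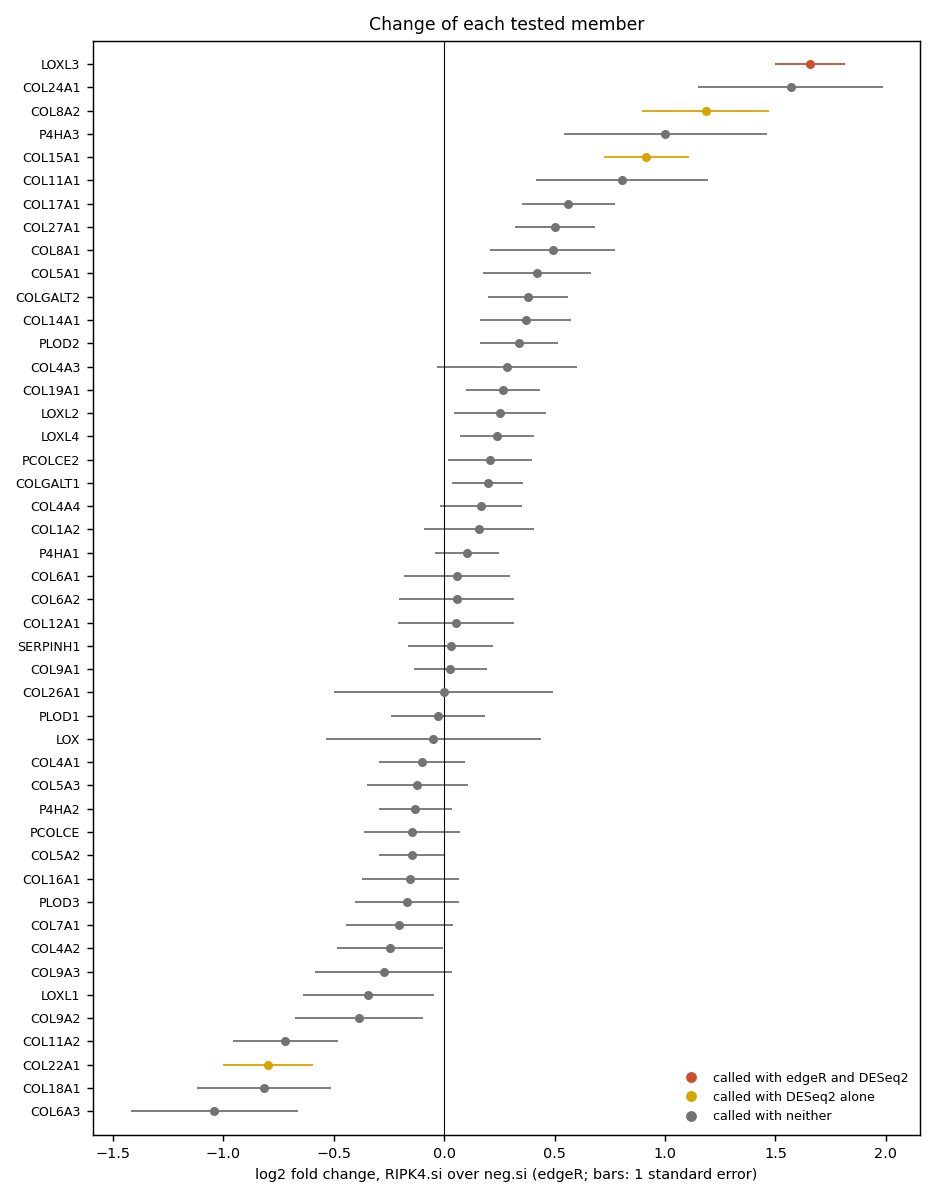
Log2 fold change of each tested member, RIPK4.si over neg.si, with bars of 1 standard error from edgeR, in order of the change, coloured by the tool that called it. LOXL3 at 1.66 stands at the top, and COL6A3 at -1.04 at the bottom.

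The 1 member called with edgeR was a lysyl oxidase. LOXL3, which oxidizes lysines of collagen and elastin, lies on chromosome 2 from 74532258 to 74555690 on the minus strand of GRCh38. Its counts were 7617, 7206 and 6032 in neg.si and 21559, 20000 and 21870 in RIPK4.si, or 246, 239.9 and 189.9 CPM against 735, 692 and 703 CPM. Every RIPK4.si library was thus well above every neg.si library, and the transcript rose 3.15-fold (log2 fold change 1.66, SE 0.16, adjusted p = 0.00655 with edgeR). The adjusted p was 4.18e-16 with DESeq2. The log2 fold change stayed between 1.55 and 1.74 over all alternatives, while the adjusted p rose to 0.105 when neg.si replicate 2 was left out, to 0.0738 for RIPK4.si replicate 1 and to 0.0725 for RIPK4.si replicate 3, so LOXL3 was not called in those fits. Because strand was not used in counting, reads over exons shared with genes on the other strand cannot be assigned to one of them. HTRA2, a mitochondrial serine protease, shares 936 bases of the 4519 exon bases of LOXL3 (20.7%), and DOK1, an adaptor of tyrosine kinases, shares 216 (4.8%). HTRA2 had 781, 693 and 510 counts in neg.si and 730, 861 and 681 in RIPK4.si, and DOK1 had 404, 290 and 246 against 256, 379 and 310, at most 861 counts beside the 20000 or more of LOXL3 in RIPK4.si.

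LOXL4 was the most abundant lysyl oxidase in every library. It was 4577, 4416 and 3508 CPM in neg.si and 4901, 5082 and 4762 CPM in RIPK4.si, groups that did not overlap, with a log2 fold change of 0.24 (SE 0.17, adjusted p = 0.732) that did not pass the test. LOXL2, another lysyl oxidase, was 199.9, 168 and 145 CPM against 247, 151 and 214 CPM, with overlap, and a log2 fold change of 0.25 (SE 0.21). LOXL1 was 2.52 to 5.88 CPM in neg.si and 3.31 to 3.44 CPM in RIPK4.si, and LOX, the founding member of the family, was under 1 CPM in every library. In CPM per kb, LOXL3 was 4.78%, 4.85% and 4.82% of the 5 lysyl oxidases in neg.si and 12.2%, 11.4% and 12.1% in RIPK4.si. The share of LOXL4 was 91.2%, 91.6% and 91.4% in neg.si and 83.6%, 86.0% and 84.1% in RIPK4.si. These shares were not tested and restate the LOXL3 change, since LOXL4 itself was not lower in RIPK4.si.

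**Figure D3:**
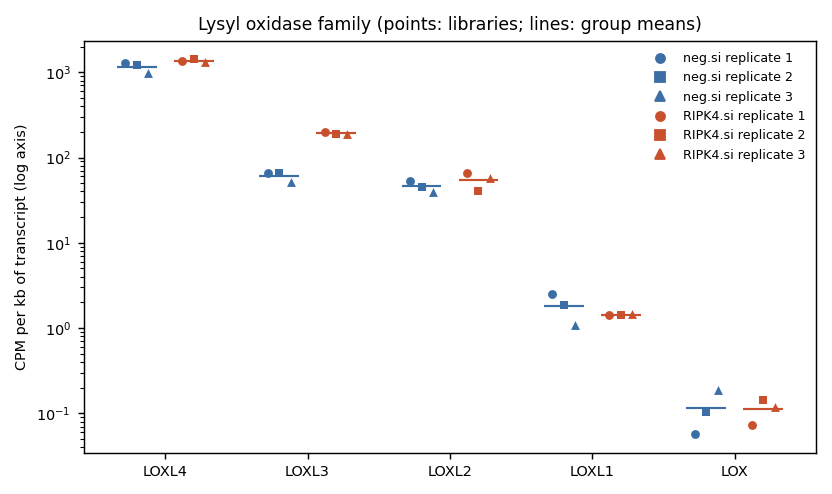
Level of the 5 lysyl oxidases in CPM per kb of canonical transcript on a log axis, with 1 point per library and a line at each group mean. LOXL3 is at 51.5 to 66.7 in neg.si and 188 to 199 in RIPK4.si, while the points of LOXL2, LOXL1 and LOX overlap between the groups.

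Inside the endoplasmic reticulum, 0 of the 9 hydroxylases, galactosyltransferases and SERPINH1 were called with edgeR, 0 had an unadjusted p under 0.05 and 0 were called with DESeq2, beside 0.767%, 10.8% and 2.91% of all genes, so for 9 genes these counts are near the background. SERPINH1 was 1193, 1002 and 895 CPM in neg.si and 1239.5, 831 and 1084 CPM in RIPK4.si (log2 fold change 0.03, SE 0.19). P4HA1 was 695, 747 and 798 CPM against 771, 836 and 797 CPM (0.10, SE 0.14). Both had overlapping groups. The 3 lysyl hydroxylases, which make the hydroxylysines used for glycosylation and cross-links, differed in their values. PLOD1 was 564, 478 and 365 CPM in neg.si and 546, 360.4 and 474 CPM in RIPK4.si (log2 fold change -0.03, SE 0.21), and PLOD3 was 773, 550.5 and 400.4 CPM against 575, 454 and 505 CPM (-0.17, SE 0.23). PLOD2, the hydroxylase of telopeptide lysines, was 245, 294 and 369.9 CPM in neg.si and 368, 392 and 389 CPM in RIPK4.si, with a log2 fold change of 0.34 (SE 0.18, adjusted p = 0.556). The highest neg.si library of PLOD2 was above the lowest RIPK4.si library. COLGALT1, which adds galactose to hydroxylysine, was 389.5, 376 and 290.1 CPM against 379, 421 and 409.8 CPM (log2 fold change 0.20, SE 0.16).

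Of the type IV chains of basement membranes, COL4A1 and COL4A2 were abundant, with COL1A2 above both in neg.si replicate 3 and RIPK4.si replicate 1 in CPM per kb. COL4A1 was 1209, 1003 and 880.4 CPM in neg.si and 1122, 771 and 993 CPM in RIPK4.si (log2 fold change -0.10, SE 0.19). COL4A2 was 1637, 1174 and 861 CPM against 1204, 872 and 1019.6 CPM (-0.25, SE 0.24). The groups overlapped for both, and neither passed the test. COL4A1 and COL4A2 assemble into one molecule, and their ratio of CPM was 0.739, 0.854 and 1.02 in neg.si and 0.932, 0.884 and 0.974 in RIPK4.si (two-sided exact permutation test, p = 0.6). COL4A3 and COL4A4, which are also arranged head to head and occur with COL4A5 in other basement membranes, were far lower, at 0.599 and 2.52 CPM per kb. COL4A3 was 3.22 to 6.51 CPM and COL4A4 20.5 to 30.3 CPM over the 6 libraries, with log2 fold changes of 0.28 (SE 0.32) and 0.17 (SE 0.18).

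The 2 multiplexins, basement membrane collagens with an interrupted helix and the source of endostatin-like fragments, had values in opposite directions. COL15A1 was 48.2, 46.7 and 43.4 CPM in neg.si and 108, 65.9 and 87.4 CPM in RIPK4.si. Every RIPK4.si library was higher, and the neg.si libraries lay close together. The log2 fold change was 0.92 (SE 0.19), with an adjusted p of 0.0740 from edgeR, 0.00128 from DESeq2 and 0.0257 with the GC trend removed. COL18A1 was 40.6, 23.5 and 16.6 CPM in neg.si and 17.5, 12.7 and 15.6 CPM in RIPK4.si, so neg.si replicate 3 lay under RIPK4.si replicate 1. Its log2 fold change was -0.82 (SE 0.30, adjusted p = 0.341). It was -1.07 (adjusted p = 0.0435) without neg.si replicate 3 and -0.38 (adjusted p = 0.481) without neg.si replicate 1. COL18A1 shares 18.5% of its exon bases with SLC19A1, a folate carrier on the other strand, which had 531, 418 and 272 counts in neg.si beside 1256, 707 and 527 of COL18A1, and 287, 423 and 443 counts in RIPK4.si beside 514, 366 and 486.

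Among the fibrillar chains, COL1A2 was by far the highest. It was 638, 632 and 817 CPM in neg.si and 1039, 510.1 and 778 CPM in RIPK4.si (log2 fold change 0.16, SE 0.25), and RIPK4.si held both the highest and the lowest library. COL5A2 was 115, 105 and 93.9 CPM against 106, 87.3 and 90.7 CPM (-0.15, SE 0.15). COL5A1, its partner in type V collagen, which sets fibril diameter, was 6.01, 3.60 and 4.03 CPM against 6.88, 5.19 and 6.17 CPM (0.42, SE 0.24). Type XI collagen, the related collagen of cartilage, had chains with values in opposite directions. COL11A1 was 0.517, 0.333 and 0.567 CPM in neg.si and 1.12, 0.727 and 0.643 CPM in RIPK4.si, from 10 to 33 counts per library (0.81, SE 0.39, adjusted p = 0.512). COL11A2 was 7.10, 5.23 and 5.51 CPM against 4.33, 2.73 and 3.76 CPM (-0.72, SE 0.24, adjusted p = 0.268). Neither chain overlapped between groups, and neither was called.

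COL24A1 and COL27A1, fibrillar chains of a separate branch of the family, had unadjusted p-values under 0.05. COL24A1 had 5, 7 and 8 counts in neg.si and 21, 14 and 23 in RIPK4.si (log2 fold change 1.57, SE 0.42, adjusted p = 0.156), so the fit rested on at most 23 counts per library, and DESeq2 gave no adjusted p. COL27A1 was 18.2, 17.9 and 18.4 CPM in neg.si and 30.6, 20.4 and 26.3 CPM in RIPK4.si (log2 fold change 0.50, SE 0.18, adjusted p = 0.328). For both genes every RIPK4.si library was higher than every neg.si library. COL17A1, the transmembrane collagen of hemidesmosomes, was 2.49, 2.40 and 3.09 CPM against 3.89, 3.84 and 4.05 CPM (0.56, SE 0.21, adjusted p = 0.343), again with no overlap.

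In the short-chain network of type VIII collagen, which forms hexagonal lattices, COL8A2 was 2.23, 2.10 and 1.07 CPM in neg.si and 4.09, 4.08 and 4.08 CPM in RIPK4.si. The 3 RIPK4.si libraries were nearly equal and all above neg.si. The log2 fold change was 1.18 (SE 0.29), with an adjusted p of 0.123 from edgeR, 0.0144 from DESeq2 and 0.0209 with the GC trend removed. It was 0.92 without neg.si replicate 3, the lowest library. COL8A1 was more abundant, at 28.9, 28.3 and 39.9 CPM against 62.2, 27.3 and 46.9 CPM, with overlap (log2 fold change 0.49, SE 0.28, adjusted p = 0.620). The log2 fold change of COL8A1 was 0.21 without RIPK4.si replicate 1 and 0.76 without RIPK4.si replicate 2.

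The beaded filament chains COL6A1 and COL6A2 had almost the same level per length, 65.6 and 66.3 CPM per kb. COL6A1 was 363, 262 and 186 CPM in neg.si and 315, 236 and 293 CPM in RIPK4.si (log2 fold change 0.06, SE 0.24), and COL6A2 was 315, 212 and 145 CPM against 265, 204 and 229.7 CPM (0.06, SE 0.26). COL6A3, the longest chain of the type VI molecule, was much lower, at 0.144 CPM per kb. It was 1.84, 1.70 and 2.58 CPM in neg.si and 1.16, 0.485 and 1.32 CPM in RIPK4.si, groups that did not overlap (log2 fold change -1.04, SE 0.38, adjusted p = 0.333, from 14 to 82 counts per library).

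Among the fibril-associated collagens, COL22A1, a collagen of tissue junctions, was 40.6, 35.8 and 32.7 CPM in neg.si and 26.1, 16.0 and 20.7 CPM in RIPK4.si. Every RIPK4.si library was lower. The log2 fold change was -0.80 (SE 0.20), with an adjusted p of 0.135 from edgeR, 0.0206 from DESeq2 and 0.0592 with the GC trend removed. The partners COL9A2 and COL9A3 of type IX collagen, which coats cartilage fibrils, were 13.9 to 32.5 CPM and 77.7 to 199 CPM in neg.si, and 14.5 to 18.6 CPM and 87.8 to 117 CPM in RIPK4.si. Their log2 fold changes were -0.39 (SE 0.29) and -0.27 (SE 0.31). For both, neg.si replicate 1 was the highest of the 6 libraries. The 16 tested members not named by the rule for named genes had mean levels of 0.114 to 50.4 CPM per kb and log2 fold changes of which 8 were above and 8 below 0, from -0.34 for LOXL1 to 0.38 for COLGALT2 apart from P4HA3. P4HA3 had 12, 6 and 10 counts in neg.si and 13, 26 and 15 counts in RIPK4.si, with the smallest adjusted p of the 16 at 0.483.

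Chains that assemble into one molecule were also compared as ratios, which need no library scaling, in the 8 of 10 pairs where both chains were tested. For 3 pairs the groups did not overlap. COL5A1/COL5A2 was 0.0524, 0.0342 and 0.0429 in neg.si and 0.0652, 0.0595 and 0.0680 in RIPK4.si (log2 difference 0.59). COL6A3/COL6A1 was 0.00507, 0.00649 and 0.0139 against 0.00368, 0.00205 and 0.00450 (-1.25). COL11A1/COL11A2 was 0.0727, 0.0637 and 0.103 against 0.260, 0.266 and 0.171 (1.54). Each had p = 0.1 in a two-sided exact permutation test, the smallest p that 3 libraries against 3 allow, and 0.267 after Benjamini-Hochberg adjustment over the 8 pairs, so this test could not pass 0.05. The ratios were not adjusted for GC content, in which the chains of these 3 pairs differed. It was 60.2% for COL5A1 and 48.3% for COL5A2, 53.1% for COL6A3 and 63.5% for COL6A1, and 47.6% for COL11A1 and 63.3% for COL11A2. The part of GC content in these ratios was not tested. The 3 differences restate the values of the single chains given above. Counts per library were as few as 14 for COL6A3 and 10 for COL11A1. Ratios of the other 5 pairs overlapped, with log2 differences of 0.10 for COL4A1/COL4A2, 0.11 for COL4A3/COL4A4, -0.02 for COL6A1/COL6A2, -0.83 for COL8A1/COL8A2 and -0.14 for COL9A2/COL9A3, and exact permutation p-values from 0.3 to 0.8.

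**Figure D4:**
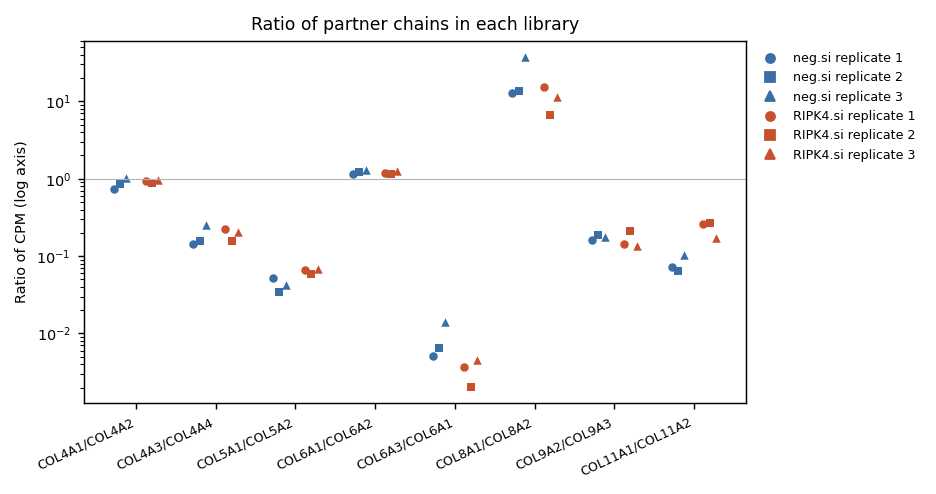
Ratio of the CPM of partner chains in each library on a log axis, with 1 point per library and a grey line at a ratio of 1. COL6A1/COL6A2 lies between 1.15 and 1.29 in all libraries, and COL11A1/COL11A2 lies at 0.0637 to 0.103 in neg.si and 0.171 to 0.266 in RIPK4.si.

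The difference between neg.si replicates 1 and 3 followed the GC content of the members. Across all genes, the deviation of a library from the mean had a rank correlation with GC content of 0.56 in neg.si replicate 1 and -0.56 in neg.si replicate 3, and between -0.08 and 0.17 in the other 4 libraries. The canonical transcripts of the 46 tested members had a median GC content of 56.7% (37.7% to 67.4%), beside 48.5% over all genes. The log2 difference between neg.si replicates 1 and 3 had a Spearman correlation with GC content of 0.85 (Pearson 0.83) across the 46 members, beside 0.64 (Spearman) across 16239 genes. These are correlations across genes of the same 2 libraries and carry no test. Neg.si replicate 1 was the highest neg.si library for 30 of the 46 members (65.2%, beside 38.8% of all genes), among them COL4A1, COL4A2, COL6A1, COL6A2, COL9A3, PLOD1 and PLOD3. RIPK4.si replicate 2 was the lowest RIPK4.si library for 34 of the 46 (73.9%, beside 41.4% of all genes), among them COL1A2, COL4A1, COL4A2 and SERPINH1. Between groups, the log2 fold change of the members had a Spearman correlation with GC content of -0.47, beside 0.06 over all genes. The part of GC content in the values of single members was not tested beyond the fit with its trend removed, under which LOXL3 kept a log2 fold change of 1.65 (adjusted p = 0.00091).

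**Figure D5:**
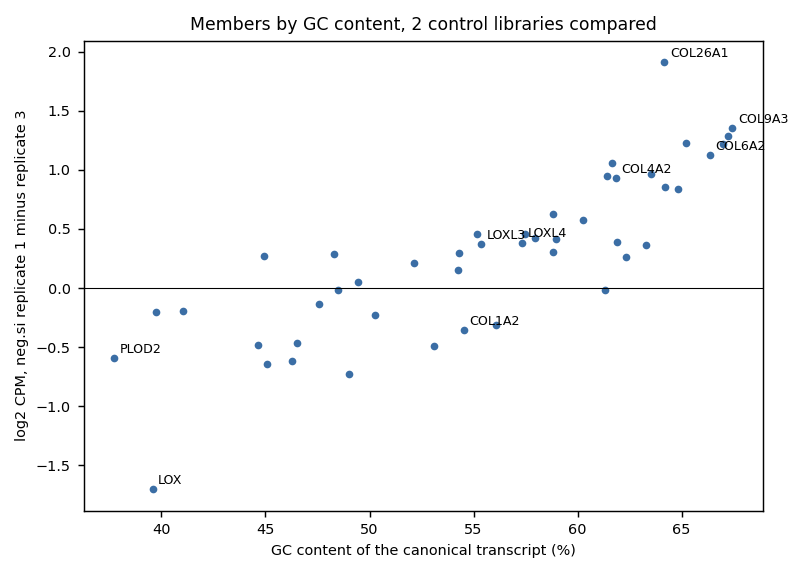
Difference in log2 CPM between neg.si replicates 1 and 3 for each tested member (vertical axis) against the GC content of its canonical transcript in percent (horizontal axis), with some members named. Members with a GC content over 60% lie mostly above 0 and those under 50% mostly below it.

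Other genes of collagen biosynthesis were counted from 4 lists: folding, prolyl 3-hydroxylation and secretion, propeptide processing, collagen receptors, and fibril-associated matrix proteins. Of 37 genes listed, 30 were tested, and 1 was called, FMOD (fibromodulin), a small leucine-rich proteoglycan that binds collagen fibrils. FMOD was 36.2, 36.3 and 39.4 CPM in neg.si and 86.5, 58.6 and 69.7 CPM in RIPK4.si and rose (log2 fold change 0.94, SE 0.17, adjusted p = 0.0490). This call was at the threshold, and the adjusted p was 0.0809 or 0.314 when neg.si replicate 1 or 2 was left out and 0.222, 0.0968 or 0.278 when RIPK4.si replicate 1, 2 or 3 was. DESeq2 called FMOD and SEC24D, a component of the COPII coat that carries procollagen out of the endoplasmic reticulum. In edgeR with the GC trend removed, the adjusted p was 0.0181 for FMOD and 0.00678 for SEC24D. Both were thus called in that fit, where 3.53% of all genes were. SEC24D was 52.1, 64.3 and 72.7 CPM against 110.1, 107 and 116 CPM (log2 fold change 0.82, SE 0.16, adjusted p = 0.0634 from edgeR and 0.000834 from DESeq2), and every RIPK4.si library was higher. By list, calls with edgeR numbered 0 of 15 genes for folding and secretion, 0 of 3 for propeptide processing, 0 of 7 for collagen receptors and 1 of 5 for fibril-associated proteins, while 2, 1, 0 and 1 had an unadjusted p under 0.05. The 1 of 30 called with edgeR and the 4 of 30 with an unadjusted p under 0.05 stand beside 0.767% and 10.8% of all genes. The 2 of 30 called with DESeq2 stand beside 2.91% of the genes with an adjusted p. Counts this small are near that background and are not read as a result about the lists. The median log2 fold change of the 30 genes was -0.04, beside -0.02 over all genes.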

How the data were processed

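The authors prepared poly(A) libraries from 6 cultures (3 per group), trimmed the paired reads with Cutadapt, aligned them with TopHat (build GRCh38.p13 in the submitters' processing notes) and used HTSeq, with strand ignored, to count the pairs on each gene. The deposited counts are whole numbers, not normalized, for 24526 genes with at least 6 counts over the libraries. The deposited signal columns hold the authors' counts divided by DESeq2 size factors and were not used. The deposited fold values (a ratio), the authors' log2 fold changes and the deposited p-values came from the authors' DESeq2 comparison and were not used. Read depth was 28464057 to 31688095 counts per library, which limits genes with few counts.

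The counts as deposited were tested with edgeR 4.0.16 in R 4.3.3 (TMM, edgeR's filter on low counts, quasi-likelihood test, Benjamini-Hochberg over 16297 genes, all 6 libraries, no covariate), and with DESeq2 1.42.0 as an alternative. The SE was the size of the log2 fold change divided by the square root of F. Replicates are taken as separate samples by their labels, and p-values measure the spread between these samples. GENCODE release 44 matched 24416 identifiers and supplied exon overlaps and, for the canonical transcript, length and GC content. Coordinates are those of the table. The GC trend of each library was removed by a lowess with span 0.3, entered as an offset. Python 3.11.15 (scipy 1.17.1, pandas 2.3.3, numpy 2.4.6, matplotlib 3.10.9) did the rest. The procedure was checked on simulated counts with the same spread for every gene and no trend on GC content. That check therefore does not cover the GC trends or the outlying libraries of these data.

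The genes named were members called with edgeR or DESeq2 or with an unadjusted p under 0.05, the 12 members with the highest mean CPM per kb, both chains of each tested pair, and genes of the 4 pathway lists called with edgeR or DESeq2. LOX, LOXL1, LOXL2, P4HA3 and the genes that share exon bases are given beside these and were chosen after their values were seen. Members and lists were chosen with earlier results of these data known. Alternatives were DESeq2, edgeR with DESeq2 size factors or with upper-quartile scaling, other filters, a replicate block, GC trend removal and each library left out.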

Additional observations from a re-analysis of the deposited data

How the results depend on the processing

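The number of genes called was 125. It was 437 with DESeq2, 575 with the GC trend removed and between 0 and 295 with each library left out in turn. With edgeR 0 genes were called when neg.si replicate 2, RIPK4.si replicate 1 or RIPK4.si replicate 3 was left out, where 1153, 1426 and 1086 genes and 8, 9 and 7 members had an unadjusted p under 0.05. DESeq2 was not run on fewer libraries. The number was 117 for DESeq2's size factors in edgeR, 127 for upper-quartile normalization, 126 with no filter on low counts and 108 with at least 10 counts in every library. The number of members called was 1. It was 4 with DESeq2, 3 with the GC trend removed and between 0 (the same 3 fits) and 2 (LOXL3 and COL18A1, with neg.si replicate 3 left out). Same-numbered libraries of the groups correlated at -0.24, 0.25 and 0.35, and neg.si replicate 1 correlated best with RIPK4.si replicate 2 (0.41), so the numbers were not taken as a pairing, and the replicate block gave 131 genes and 1 member and changed no call of a named gene. Of 30 named members, 10 changed sign when a library was left out, none of them called in any of the 13 alternatives: COL1A2 (-0.10 to 0.40), COL4A1 (-0.22 to 0.047), COL4A2 (-0.44 to 0.035), COL6A1 (-0.15 to 0.35), COL6A2 (-0.18 to 0.40), COL9A2 (-0.62 to 0.045), COL9A3 (-0.52 to 0.24), PLOD1 (-0.18 to 0.14), PLOD3 (-0.37 to 0.12) and SERPINH1 (-0.10 to 0.18). The log2 difference of the ratio changed sign for COL4A1/COL4A2 (-0.0083 to 0.23), COL4A3/COL4A4 (-0.032 to 0.36) and COL6A1/COL6A2 (-0.062 to 0.018). It kept its sign but moved for COL8A1/COL8A2 (-1.09 to -0.33) and COL9A2/COL9A3 (-0.33 to -0.019). The cause was not tested. FMOD lost its call under upper-quartile normalization (adjusted p = 0.0556) and with at least 10 counts in every library (adjusted p = 0.0515). Depth limits LOX, COL24A1 and P4HA3, which had at most 30, 23 and 26 counts per library.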
